A study of Drosophila melanogaster with 2 samples.

Results

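The 10 genes described here are mesoderm and muscle genes of Drosophila melanogaster, and the data are ChIP-seq peaks of the GFP-tagged protein CG3407 in whole embryos. They are the regulators twi, tin, bap, Mef2, htl and how and the muscle structure genes Act87E, Tm1, sls and Mhc, 10 of the 13945 protein-coding genes on the 6 chromosome arms used. The list was chosen by biological role but with the peak calls at such genes already known, so the presence and score of a peak at a member is a description and was not tested. The libraries came from embryos of both sexes aged 0 to 14 h, from a transgenic line that stably carries CG3407 with GFP at its C terminus. Both biological replicates belong to that 1 group, and peaks from untagged embryos were not analysed here. The free-text label calls each library an input control, whereas its assay and antibody fields name a transcription factor ChIP. The deposited peak lists were made from these libraries against a separate control file, and they were read as ChIP libraries.

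The mesoderm of the fly embryo forms from ventral cells that express the basic helix-loop-helix factor Twist, encoded by twi, and gives rise to body wall muscle, heart and gut muscle. Twist acts upstream of the homeobox gene tin, needed for heart and dorsal mesoderm, and tin acts upstream of bap, a homeobox gene of the visceral mesoderm. Mef2 encodes a MADS-box factor that activates genes of muscle differentiation. htl encodes a fibroblast growth factor receptor that mesoderm cells need to spread, and how encodes an RNA-binding protein of muscle and tendon cells. Of the structural genes, Act87E encodes an actin, Tm1 tropomyosin, sls the large elastic protein Sallimus and Mhc the muscle myosin heavy chain. A whole embryo mixes many tissues, so a peak cannot be assigned to mesoderm cells, and the lists hold no expression against which the tissue could be checked.

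A summit is the position of highest signal within a peak. The irreproducible discovery rate (IDR) judges peaks by how alike they rank in the replicates, and the deposited IDR list holds 4089 summits. It is made up of the 4089 highest of 30000 candidates called on both replicates pooled. A single summit in it need not rank alike in both replicates. Each replicate has a list of 30000 candidates of its own, which takes in background. Scores are the deposited values of the peak caller, from 163 to 23642 in the IDR list with a median of 262. Their scale differs between lists, so a peak is compared between replicates by its rank (1 is the highest score). Read depth is unknown here.

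The IDR list had 15 summits in the loci of 7 of the 10 genes, a locus being the gene body and 10 kb on either side. Summits lay within 500 bp of a transcription start site (TSS) at tin, htl, Act87E, Tm1 and sls, elsewhere in the gene body at Mef2 and how, and outside the body, away from the TSS, at Mef2, Act87E and Tm1. twi, bap and Mhc had none. At a TSS, 5 of 10 members had a summit, and 14.1% of all protein-coding genes did. With a window of 250 bp in place of 500 bp it was 2 of 10, tin and Tm1, and no share of all protein-coding genes was computed there. Since the members were picked with these calls in view, nothing is read from the difference between 5 of 10 and 14.1%. Within the gene body 4 of 10 members had a summit (Mef2, htl, how and Tm1), against 10.6% of all protein-coding genes. Within 10 kb outside the body 5 of 10 had one (tin, Mef2, Act87E, Tm1 and sls), against 51.2%, and in the locus as a whole 7 of 10, against 55.0%. A summit just upstream of a gene counts both at its TSS and outside its body. The 5 of 10 with a summit outside the body stand near the 51.2% of all genes, and tin and sls are among them through their own promoters.

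Longer genes hold more summits, so body counts were also set beside genes of like length. Of the 3 members under 5 kb (tin, bap and Act87E) none had an IDR summit in the body, where 3.46% of such genes did. htl, the 1 member of 5 to 20 kb, had one, against 25.0%. Of the 4 members of 20 to 50 kb, Mef2, how and Tm1 had one and Mhc had none, against 46.0%. Neither twi nor sls, both over 50 kb, had one, against 56.7%.

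**Figure D1:**
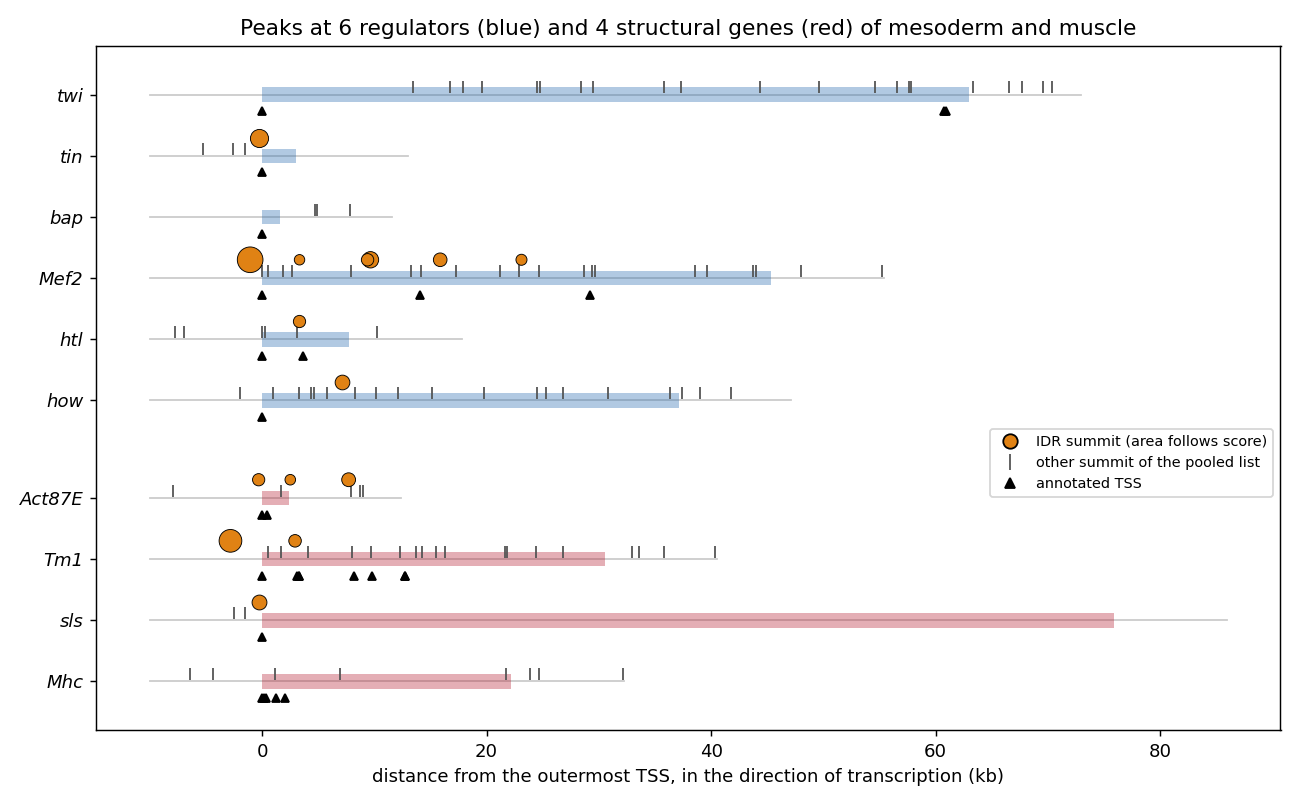
Positions of summits at the 10 genes, in kb from the outermost TSS in the direction of transcription. Bars are gene bodies of the 6 regulators (blue) and 4 structural genes (red), circles are IDR summits with an area that follows the score, ticks are the other summits of the pooled list and triangles are TSSs. The 15 circles fall at 7 genes, 6 of them at Mef2, and no circle or tick lies in the body of sls.

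At the promoters, the highest score of the members was at tin. Its summit lay at chr3R:21378741, 236 bp upstream of the single TSS (peak chr3R:21378661–21378877, dm6), with a score of 606 and rank 460 of 4089. It scored 233 in replicate 1 at rank 561 and 372 in replicate 2 at rank 426. sls followed with a summit 267 bp upstream of its TSS (chr3L:2115783–2115954), a score of 406 and rank 972. That peak scored 174 in replicate 1 at rank 933 and 225 in replicate 2 at rank 1095. By score, 11.2% of the IDR list stood at or above tin and 23.8% at or above sls.

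The other 3 promoter summits had scores close to each other. Tm1 had one at chr3R:15280949–15281364, 214 bp upstream of the TSS of transcript RG, with a score of 289 and rank 1753. It scored 142 in replicate 1 at rank 1335, and the candidate nearest to it in replicate 2 scored 155 at rank 2099. Tm1 has 8 TSSs, and this summit lies inside the annotated body because transcript RT starts further upstream. The summit of htl lay at chr3R:18049509–18049924, with a score of 277 and rank 1873. It scored 140 in replicate 1 at rank 1372 and 145 in replicate 2 at rank 2313. It was 351 bp upstream of the inner TSS, used by transcripts RA and RC, in an intron of the longer transcript RB. The summit of Act87E lay at chr3R:13425469–13425884, 306 bp upstream of its outer TSS, with a score of 276 and rank 1889. It scored 132 in replicate 1 at rank 1489 and 150 in replicate 2 at rank 2200. This peak also overlaps lncRNA:CR45591, a non-coding gene on the opposite strand, so it cannot be credited to Act87E alone. All 5 promoter summits ranked among the 4089 highest candidates of each replicate, in which 14.1% of all protein-coding genes in replicate 1 and 14.1% in replicate 2 had such a candidate at a TSS.

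The sequences at these 5 summits are shown because they are the promoter stretches under the peaks. Each is 101 bases of the RefSeq copy of Release 6, the dm6 assembly, with the summit at the middle base, written 5′ to 3′ on the strand of the gene. Capitals mark matches to a set of 9 motifs named further on, and a line without capitals has none. Their positions are chr3R:21378691-21378791 for tin, chr3L:2115828-2115928 for sls, chr3R:15281107-15281207 for Tm1, chr3R:18049667-18049767 for htl and chr3R:13425627-13425727 for Act87E. htl and sls are on the minus strand.
tin: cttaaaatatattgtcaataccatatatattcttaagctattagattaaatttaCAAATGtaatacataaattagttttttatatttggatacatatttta
htl: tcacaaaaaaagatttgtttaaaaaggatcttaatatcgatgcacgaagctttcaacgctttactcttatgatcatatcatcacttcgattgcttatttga
sls: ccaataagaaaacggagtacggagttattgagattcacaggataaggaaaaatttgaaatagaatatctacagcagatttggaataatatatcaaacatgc
Act87E: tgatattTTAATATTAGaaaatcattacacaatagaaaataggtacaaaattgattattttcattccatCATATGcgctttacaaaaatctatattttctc
Tm1: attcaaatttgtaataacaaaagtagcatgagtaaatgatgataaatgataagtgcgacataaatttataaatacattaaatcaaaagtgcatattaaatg

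All 5 windows are free of annotated exons. At tin the capitals are an E-box (CANNTG), the element bound by basic helix-loop-helix factors such as Twist. At Act87E they are a match to the binding site of Mef2 and the E-box CATATG. GC content of these windows was 15.8% at tin, 21.8% at Tm1 and at Act87E, 30.7% at htl and 31.7% at sls. Only 37 of the 4089 IDR summits, or 0.905%, were as poor in GC as that of tin.

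The 5 promoter summits all lay upstream, between 214 and 351 bp from the nearest TSS of their gene. Over all 1579 IDR summits within 500 bp of a protein-coding TSS, the median was −118 bp, with quartiles of −213.5 and −26.5 bp. Each member summit was thus further upstream than the lower quartile of all promoter summits, though that of Tm1, at −214 bp, only just. The matching replicate 2 summit of Tm1 lay 61 bp from it. The range that the members span held 16.5% of all promoter summits. The largest distance inside the 500 bp window was the 351 bp of htl, and the smallest outside it was 1064 bp, upstream of Mef2. None of the 5 TSSs had another gene starting within 1000 bp upstream on the opposite strand. Counting every TSS of a gene, 2 of the 5 had such a divergent neighbour, against 1271 of the 1964 protein-coding genes with a promoter summit (64.7%). Of the 5 members without a promoter summit 2 had one, and of all other protein-coding genes 35.5%. With 5 genes this is a description, without a test. The nearest TSS of another protein-coding gene was 1340 bp from the tin summit, at mod(mdg4), which encodes a BTB-domain insulator protein. For the other 4 genes it was between 2489 bp (Tm1) and 35822 bp (sls) away.

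**Figure D2:**
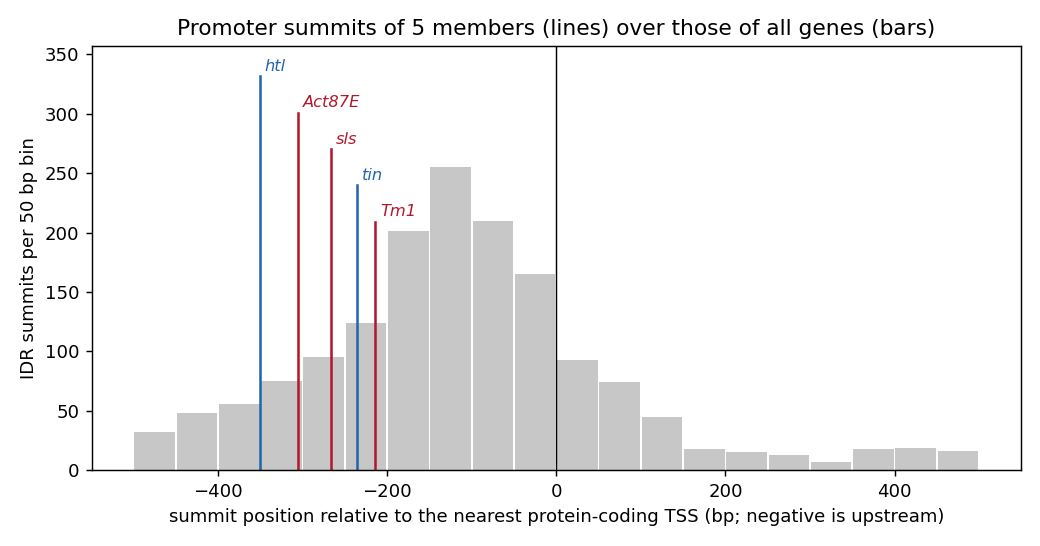
Position of promoter summits relative to the nearest protein-coding TSS (x axis, bp, negative is upstream). Grey bars count the 1579 IDR summits of all genes in bins of 50 bp, and lines mark the 2 regulators (blue) and 3 structural genes (red) with a promoter summit. The 5 lines stand between −351 and −214 bp, left of the tallest bars.

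Among the regulators, Mef2 had the most summits, with 6 of the 9 in the regulator loci. Mef2 lies on the minus strand at chr2R:9913496–9958858 and has 3 TSSs, and none of the 6 summits is within 500 bp of them. The highest, with a score of 1209 and rank 95, was 1064 bp upstream of the outermost TSS, at chr2R:9959741–9960081. Its ranks were 96 in replicate 1 (score 513) and 103 in replicate 2 (score 700.4). It lies 156 bp from a TSS of the neighbouring gene Pal1, inside Pal1, and so cannot be credited to Mef2 alone. The other 5 were inside Mef2.

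Of these 5, the summit with the highest score (493, rank 681) lay in an intron 4438 bp upstream of the TSS of transcript RG, and a neighbouring one (282, rank 1820) was 4698 bp upstream of the same TSS. The stronger ranked 632 in replicate 1 and 736 in replicate 2, and its neighbour 2601 and 1542. A summit with a score of 342 and rank 1304 lay in the annotated 5′ UTR, 1773 bp downstream of the TSS of RG, with ranks of 1400 and 1284 in replicates 1 and 2. The one 6135 bp upstream of the innermost TSS, which 8 of the 11 transcripts use, scored 224 at rank 2572, with ranks of 2192 and 2895. The lowest, 3335 bp into the gene, scored 201 at rank 3017. It ranked 1612 in replicate 2 but 12112 in replicate 1, and the replicate 1 summit was 98 bp away. No other summit of the 15 fell outside the top 4089 candidates of a replicate. The highest candidate of Mef2 outside the IDR list, also in the gene body, was at rank 4126 of the pooled list with a score of 162. At its TSSs Mef2 had 4 candidates in the pooled list and in each replicate, and the highest of them ranked 5342 in the pooled list, 5057 in replicate 1 and 5611 in replicate 2.

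how had 1 IDR summit, in an intron 7149 bp downstream of the single TSS, at chr3R:22049198–22049404. Its score was 398 and its rank 1008, with a score of 149 at rank 1212 in replicate 1 and a score of 250.2 at rank 903 in replicate 2. No pooled candidate lay within 500 bp of the TSS of how. The 101 bases at the summit (chr3R:22049290-22049390, plus strand) are shown because how has no promoter summit and this intronic one is its only IDR summit, with its E-box CAGCTG in capitals.
how: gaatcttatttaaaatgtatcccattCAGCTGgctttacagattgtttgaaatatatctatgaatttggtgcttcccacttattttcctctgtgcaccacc

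twi and bap had no IDR summit in their loci. The nearest one to twi was 16035 bp outside its body. The annotated body of twi spans 63.0 kb (chr2R:22985374–23048325) because the transcript RC starts far upstream, while RA and RB span 2.22 kb and other genes lie between. The 16 pooled candidates in the body fall in the stretch that RC alone covers, and the highest ranked 4723 with CG9896 as the nearest gene. Within RA and RB no pooled candidate was listed, and replicate 2 alone had 1, at rank 14429 and 93 bp downstream of a TSS. bap had 3 candidates within 10 kb in the pooled list and none at its TSS in any list. The best of them, 4722 bp downstream of the TSS, ranked 6817 in the pooled list, 5763 in replicate 1 and 11390 in replicate 2. The tin promoter summit is 10139 bp from bap and so falls just outside its 10 kb window.

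Among the structural genes, Act87E had 3 IDR summits in its locus. Besides the promoter summit there was one 120 bp past the end of the gene, between Act87E and yrt, with a score of 206 and rank 2911. It scored 77.0 in replicate 1 at rank 3378 and 144 in replicate 2 at rank 2334. The third (352, rank 1259) lay 5318 bp outside Act87E in an intron of yrt, which encodes a FERM-domain protein of epithelial polarity, and yrt has the nearest TSS. Its ranks were 1459 in replicate 1 and 1200 in replicate 2. The second summit of the Tm1 locus was its highest, with a score of 949 and rank 179. It ranked 175 in replicate 1 (score 405) and 182 in replicate 2 (score 551). It lay 2818 bp upstream of the outermost TSS of Tm1 and 120 bp from that of CG4338, in a peak (chr3R:15275208–15275563) that overlaps both CG4338 and Cp190, the gene of an insulator protein. In both classes, then, the highest summit of the loci stood at the promoter of a neighbour, Pal1 beside Mef2 and CG4338 beside Tm1.

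sls and Mhc had no IDR summit in the body. sls spans 75.9 kb, of which 73.0% is coding, and 1 of the 307 protein-coding genes over 50 kb has a larger coding share. The pooled list had no candidate in it, which held for 23 of these 307 genes (7.49%). The median coding share of those 23 was 2.24%, against 4.54% over all 307, and the highest was 92.5% in both sets. A link between coding share and the lack of candidates was not tested. In the sls body each replicate had 1 candidate, at rank 19323 in replicate 1 and 33.7 kb from the TSS, and at rank 22583 in replicate 2 and 595 bp from the TSS. Neither was thus found in the other replicate. Mhc had 8 candidates in its locus in the pooled list, none above rank 10489. The one at a TSS, 103 bp upstream of the start of transcripts RQ, RS, RU and RV, scored 80.4 at rank 10740, with rank 13311 in replicate 1 and 14136 in replicate 2. The nearest IDR summit to Mhc was 45687 bp away. A pooled candidate at a TSS was found at 7 of the 10 members (tin, Mef2, htl and all 4 structural genes), against 41.6% of all protein-coding genes.

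The regulators were then set against the structural genes. At a TSS, 2 of 6 regulators and 3 of 4 structural genes had an IDR summit within 500 bp, against 1 regulator (tin) and 1 structural gene (Tm1) within 250 bp, and the 500 bp counts were equal in the 4089 top-scoring candidates of each replicate. In the gene body it was 3 of 6 regulators and 1 of 4 structural genes. Of the 9 summits in the regulator loci, 7 were inside the genes, 5 of them in Mef2. Of the 6 in the structural loci, 1 was inside a gene, the intronic promoter summit of Tm1. Per 100 kb of locus the regulators had 3.24 IDR summits and the structural genes 2.84, against 3.05 over the 6 chromosome arms. With the same number of top candidates taken from 1 replicate at a time, the density was 3.60 ± 0.509 per 100 kb at regulators and 2.84 in both replicates at structural genes (SD, n = 2). Median scores were 342 over the 9 summits of regulators and 320.3 over the 6 of structural genes. These are 6 and 4 genes chosen by role, so the differences were not tested, and the class densities lie close to the mean of the arms. Single loci lie far from it. Among regulators the density was 9.18 at Mef2 and 0 at twi and bap, and among structural genes 13.4 at Act87E and 0 at Mhc.

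The 15 summits were found in both replicates, each with a candidate summit within 100 bp, as were 92.6% of all IDR summits. All but 1 (14 of 15, or 93.3%) matched one of the 4089 highest candidates in both, against 71.8% of all IDR summits. By score, 12 of the 15 were above the median of the IDR list. Replicates differed little in rank for the highest summits, at Mef2 upstream, Tm1 upstream and tin. They differed more for the lower summits in Mef2 and past the end of Act87E, and the ranks of htl, Tm1 and Act87E at their promoters were better in replicate 1.

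**Figure D3:**
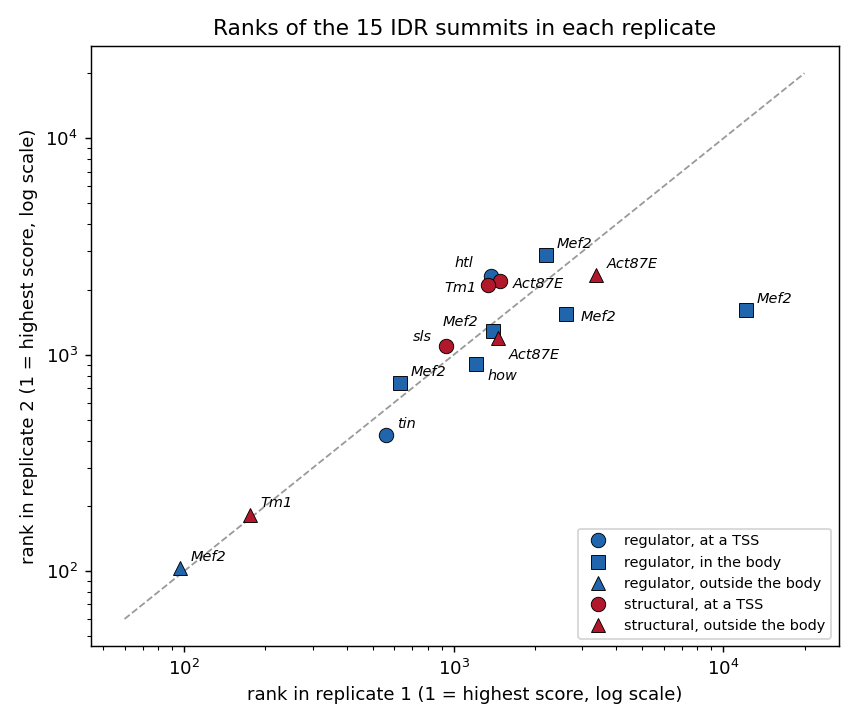
Rank of each of the 15 IDR summits in replicate 1 (x axis) and replicate 2 (y axis), both on log scales with 1 as the highest score. Blue marks regulators and red structural genes; circles are summits at a TSS, squares summits in the body and triangles summits outside it, and the dashed line is equal rank. The point farthest from the line is the intronic Mef2 summit with ranks 12112 and 1612.

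Candidates of any score showed how evenly the loci were covered. Over the 6 regulators the 2 replicates averaged between 16.2 ± 3.28 candidate summits per 100 kb of locus at bap and 41.3 ± 2.16 at Mef2 (SD, n = 2), with 26.5 ± 5.11 at twi, 28.3 ± 15.4 at tin, 25.2 ± 5.09 at htl and 34.1 ± 8.66 at how. Over the structural genes they averaged 33.5 ± 9.47 at Act87E, 42.5 ± 9.79 at Tm1, 3.13 ± 1.47 at sls and 19.0 ± 6.70 at Mhc. The mean over the arms was 22.4 in each list. The replicates differed most at tin, with 17.4 in replicate 1 and 39.1 in replicate 2. sls was far below the other 9 genes in both replicates, and 10.6% of all protein-coding genes had a locus density in the pooled list as low as that of sls or lower. The loci of tin and bap overlap, so they share candidates. At Mef2, 0 of the 23 pooled candidates in the body lay in its coding exons, which make up 4.26% of the body. At how it was 1 of 16, with a coding share of 3.52%. At Tm1 it was 0 of 15 with 16.0%, at Mhc 0 of 3 with 32.8%, and at Act87E 1 of 1 with 47.1%. The replicates differed at Act87E, with 0 of 1 in replicate 1 and 1 of 1 in replicate 2. They also differed at how, with 0 of 12 and 2 of 17, while Mef2, Tm1 and Mhc had 0 in both. Shares as low as those of Mef2 and how leave room for few candidates in coding exons.

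**Figure D4:**
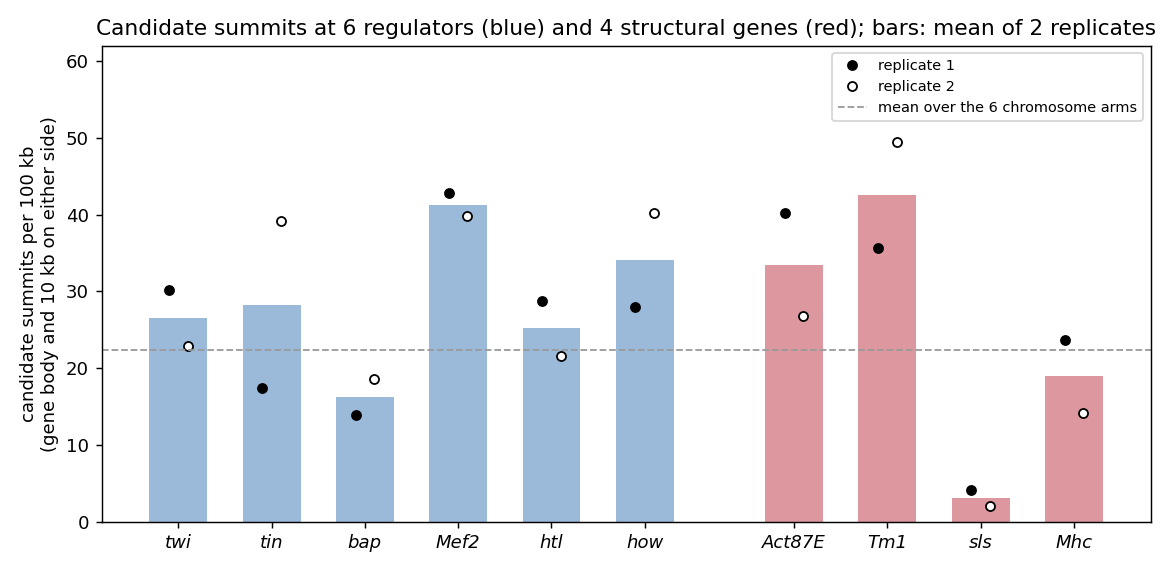
Candidate summits per 100 kb of locus (gene body and 10 kb on either side) for the 6 regulators (blue) and 4 structural genes (red). Bars are means of the 2 replicates, filled and open points are replicates 1 and 2, and the dashed line is the mean over the 6 chromosome arms, 22.4. sls stands lowest at 3.13 and Tm1 highest at 42.5.

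Motifs on either strand were counted up to 50 bp from the 15 summits and read beside all 4089 IDR summits and the 25911 other pooled candidates. The E-box CANNTG was at 6 of 15 member summits (40.0%), at 35.6% of all IDR summits and at 40.7% of the other candidates. CACATG and CATATG, forms of the E-box that Twist binds, were at 1 summit each, in an intron of Mef2 and at Act87E; these also count as CANNTG. They were at 3.86% and 4.45% of all IDR summits. The Mef2 site was at 1 summit, that of the Act87E promoter, and at 7.02% of all IDR summits. The forkhead core TGTTTAC was at 1, in Mef2, against 5.77%. The Tinman site CACTTGA, the GAGA element GAGAGAG, the DRE TATCGATA and the stretch TATTTAC were at none of the 15, against 1.59%, 1.49%, 1.03% and 8.36% of all IDR summits. In all, 7 of the 15 member summits (46.7%) had a match to at least 1 of the 9 motifs, near the 49.99% of all IDR summits and the 48.7% of the other candidates. Median GC content was 30.7% at the member summits and 33.7% at all IDR summits.

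A wider list of 72 other mesoderm and muscle genes, 36 regulators or signalling and fusion genes and 36 structural or attachment genes, was also read. It was drawn up by role, with earlier results of these data known. An IDR summit lay at a TSS in 9 of 72 (12.5%), close to the 14.1% of all protein-coding genes, with 5 of 36 on the regulator side and 4 of 36 on the structural side. A pooled candidate lay at a TSS in 42 of 72, above the 41.6% of all protein-coding genes, and an IDR summit in the body of 19 of 72 (26.4%), against 10.6%. These counts were not matched for gene length, and the median length of the 72 genes was 9.43 kb. One of the 4089 highest candidates of a single replicate lay at a TSS in 7 of 72 genes in replicate 1 and 13 of 72 in replicate 2. Of all protein-coding genes, 14.1% had one in each replicate. The highest of the 9 was stumps, whose product acts downstream of the receptor encoded by htl, with a score of 553, rank 551 and a summit 291 bp upstream of a TSS. It ranked 536 in replicate 1 and 564 in replicate 2. It was followed by Msp300, which encodes a nesprin-like protein that anchors nuclei in muscle, with 532, and by tmod, the gene of the actin-capping protein tropomodulin, with 348. The myoblast fusion genes rols, mbc and blow had 285, 224 and 176. For mbc the nearest TSS was that of Nup98-96. NFAT had 274, and the attachment genes mys, the integrin beta chain, and stck, an adaptor of integrins, had 214 and 179. stck ranked 5069 in replicate 1 and blow 4246, outside the 4089 highest there. No IDR summit lay at a TSS of Tm2, bt, Prm, Mlc1, Mlc2, Zasp52 or the troponin genes up and wupA. The same held for sna, zfh1, bin, lmd, Doc1, Doc2 and Doc3, though several of these genes had a pooled candidate at a TSS.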

How the data were processed

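ChIP-seq libraries of 2 biological replicates were sonicated to 200 to 800 bp, per the labels' protocols. The authors deposited peak lists on dm6 for each replicate, for both pooled and for the peaks passing IDR. Each peak has a signal score and a −log10 q-value, both given by the authors' peak caller as deposited, and the score was used here. The alignment and peak-calling software and the IDR cutoff were not given in the sources used here. Read totals were not analysed, so no counting error can be given, and 2 replicates limit the precision.

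Summits were assigned to protein-coding genes of Ensembl release 115 with Python 3.11.15, pandas 2.3.3 and numpy 2.4.6, and drawn with matplotlib 3.10.9. A summit was at a TSS within 500 bp of any annotated TSS, and a locus was the body and 10 kb on either side. A replicate summit matched within 100 bp. Assignment was tested on simulated data. The members and lists were chosen with earlier results of these data known. All 10 members are named, with the wider-list genes that have an IDR summit at a TSS, at most the 12 of highest score, and the gene nearest each summit outside a member. The wider-list genes named as having no IDR summit at a TSS were chosen after their values were seen. Alternatives were other TSS windows, flanks, peak thresholds and motif windows, canonical transcripts, interval overlap, nearest genes and single replicates.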

Additional observations from a re-analysis of the deposited data

How the results depend on the processing

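Of 43 recomputed values, 28 stayed within the spread set for them and 15 moved. For counts the spread was a ratio of 1.5, and for densities it was the SD between replicates. At structural genes that SD was 0, so any change in their density counted as moved. The 28 and 15 thus depend on these limits and do not measure robustness. With a TSS window of 250 bp, 2 members and 5 genes of the wider list had an IDR summit at a TSS, against 5 and 9 with 500 bp, and with 1000 bp the wider list had 14. With canonical transcripts alone, 4 members and 5 genes of the wider list had an IDR summit at a TSS. With the IDR peaks above the median score the wider list had 5, and the density was 2.52 per 100 kb at regulators and 2.37 at structural genes. With flanks of 5 kb the densities were 4.13 at regulators and 2.92 at structural genes. With flanks of 20 kb, 8 members had a summit outside the body, and the density at structural genes was 2.06. Counting only summits whose nearest TSS is the member's, 3 members had one outside the body and the density at structural genes was 1.89. No share of all protein-coding genes was computed for these settings, so the gene counts among them stand without one. A motif was within 100 bp of 11 member summits (73.3%), and of 74.7% of all IDR summits. The cause was not tested. Leaving out each replicate in turn gave 3.24 to 3.96 summits per 100 kb at regulators, 2.84 at structural genes and 7 to 13 genes of the wider list. No paired analysis was possible because both replicates belong to 1 group. Depth is unknown.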

Other observations

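Paralogs and neighbours of the members were read after their values were seen. Of the 6 actin genes, Act87E and the cytoplasmic actin gene Act5C had an IDR summit at a TSS, against 14.1% of all protein-coding genes. That of Act87E scored 276 at rank 1889, and the higher of the pair at Act5C scored 271 at rank 1951, at −437 bp from a TSS, with rank 2259 in replicate 1 and 2209 in replicate 2. The muscle actin genes Act57B, Act79B and Act88F and the cytoplasmic Act42A had no IDR summit in their loci. In all, 55.0% of protein-coding genes had one in the locus, and the difference between the actin genes was not tested. Act79B had no candidate in its locus in any list.

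tin and bap belong to a cluster of NK homeobox genes on 3R with lbl, lbe, C15 and slou. Of these 6, 1 (tin) had an IDR summit at a TSS, against 14.1% of all protein-coding genes. The stretch from the TSS of tin to slou, 178 kb, leaves out the tin promoter summit, which lies upstream of it. This stretch held 4 IDR summits and 39 pooled candidates, with 37 candidates in replicate 1 and 42 in replicate 2. Between tin and bap (6.91 kb) no candidate was listed in the pooled list or replicate 1, and 3 were in replicate 2.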
